A study of Mus musculus with 15 samples.

Results

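The genes described here were 45 interferon response genes of the mouse, chosen by symbol from the 27179 genes of each results table: 3 receptor chains, 5 transcription factors, 5 genes of RNA sensing, 9 genes of the oligoadenylate synthetase (OAS) family, Isg15 and Usp18, 12 antiviral effectors, 5 other induced genes and 4 genes of antigen processing. All 45 had a row in each of the 4 tables. They were measured by RNA sequencing in induced renal tubular epithelial cells (iRECs), mouse fibroblasts converted into tubule-like epithelial cells by introduced transcription factors. Of the 5 groups, with 3 libraries each and 15 in all, the control group grew on flat plates (2D). A second group was embedded in Matrigel, a gel extracted from basement membrane, another in fibrin, the protein mesh of blood clots, and another in collagen I, the fibre-forming collagen of connective tissue. In the last group an inkjet bioprinter dispensed the cells, with fibrin together with collagen I as the gel (printed cultures). Their deposited table carries only collagen in its name, so the gel behind the printed values is taken from the sample labels. Those labels call the printed cultures guided growth and every other group, 2D included, self assembly. Printing, mixed gel and guided growth therefore cannot be told apart in the printed values. Every group came from 1 cell line, was kept in renal epithelial growth medium with no drug or interferon named in the labels, and was harvested on day 7. The 3 libraries of a group were started at passages 35, 48 and 53, and the groups of 1 passage came from a common pool of cells. The replicates were therefore cultures of 1 line and not separate animals.

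Interferons are secreted proteins that cells release when they sense viral or misplaced nucleic acid. Type I interferons bind the receptor chains encoded by Ifnar1 and Ifnar2, and the receptor's kinases activate a complex that holds the products of Stat2 and Irf9. This complex binds interferon-stimulated response elements in the promoters of the induced genes, many of which block steps of viral replication. Epithelial cells, tubule cells included, can respond through this pathway without immune cells being present.

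Each of the 4 tables compared 1 microenvironment with the same 3 libraries of 2D, and held a single mean and a single fold change for each gene, so the values and the depth of single libraries are unknown. The base mean is the mean of the normalised read counts over the 6 libraries of a table, and the level of each group was computed from the base mean and the fold change together. A range of levels given for 2D runs over the 4 tables, which hold the same 3 libraries, and is not a spread between libraries. Fold changes are given as log2 ratios to 2D, the number after ± is the authors' standard error, and a gene is said to have risen or fallen where the authors' adjusted p lay under 0.05. All 4 comparisons share the 2D libraries, so a low or high value there moves them together. Of the 45 genes, 40 had an adjusted p in all 4 tables, 3 had none in any (Mx1, Ifitm1 and Ifi44, which have few reads) and 2 had one in some tables (Oas2 and Ifitm3). In 2D the level of these genes per kilobase of exon spanned a wide range. B2m, the light chain of MHC class I molecules, was highest with 31856 normalised reads per kilobase. Bst2, a membrane tether of budding viruses, followed with 9826, and Ifitm2, which hinders viral fusion with the cell, with 3735. The lowest was Ifi44, an interferon-induced gene of the cytoplasm, with 0.38 normalised reads per kilobase. The cells in 2D thus already held transcripts of receptors, transcription factors and several effectors, while Mx1, Ifitm1, Oas2, Ifi44 and Oas3 lay under 2 reads per kilobase.

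**Figure D1:**
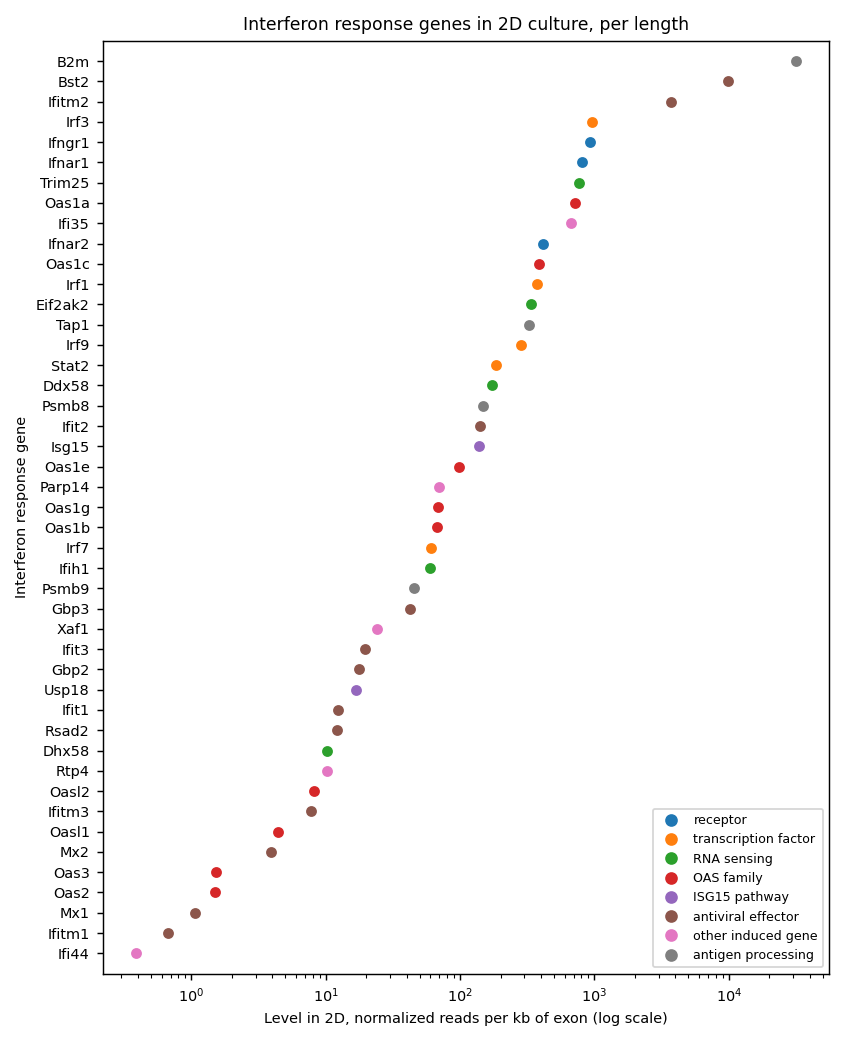
Level of each of the 45 interferon response genes in 2D culture, in normalised reads per kilobase of exon on a log axis, coloured by role. Points are the median of the levels that the 4 tables give for the same 2D libraries; B2m lies highest at 31856 and Ifi44 lowest at 0.38.

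Most of the 45 genes did not pass the test in any microenvironment. Of the 41 with an adjusted p in Matrigel, 2 fell and 0 rose, 4.88% in all, against 6.36% of all genes tested there that changed, 4.03% that rose and 2.32% that fell. In fibrin 2 of 41 rose and 1 fell, 7.32% in all, against 8.3% of all genes that changed, 5.19% that rose and 3.11% that fell. In collagen I 4 of 40 fell and 0 rose, 10% in all, against 11.2% of all genes that changed, 6.51% that rose and 4.65% that fell. In the printed cultures 1 of 41 rose and 2 fell, 7.32% in all, against 3.18% of all genes that changed, 2.51% that rose and 0.675% that fell. The shares that changed in either direction were close to the background in Matrigel, fibrin and collagen I. In the printed cultures they rest on 3 genes. All calls in Matrigel and collagen I were falls, 2 of 41 and 4 of 40, against 2.32% and 4.65% of all genes. Members with an unadjusted p under 0.05 were 11.1% in Matrigel, 33.3% in fibrin, 31.1% in collagen I and 17.8% in the printed cultures. The shares of all genes with a p-value were 12.2%, 14.6%, 16.5% and 8.82%, and the difference was not tested. Among the members, 38 passed in no comparison, 5 in 1, Ifit1 in 3 and Oas1e in all 4.

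The median log2 fold change of the 45 genes was -0.15 in Matrigel, -0.12 in fibrin, -0.41 in collagen I and -0.22 in the printed cultures, against -0.01, 0.00, 0.00 and 0.01 for all genes with a p-value. The share of members with a value below 0 was 66.7% in Matrigel, 57.8% in fibrin, 77.8% in collagen I and 77.8% in the printed cultures, against 51.2%, 49.9%, 49.3% and 47.8% of all genes. Genes of this pathway are not independent of each other, and no test was made of these medians.

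**Figure D2:**
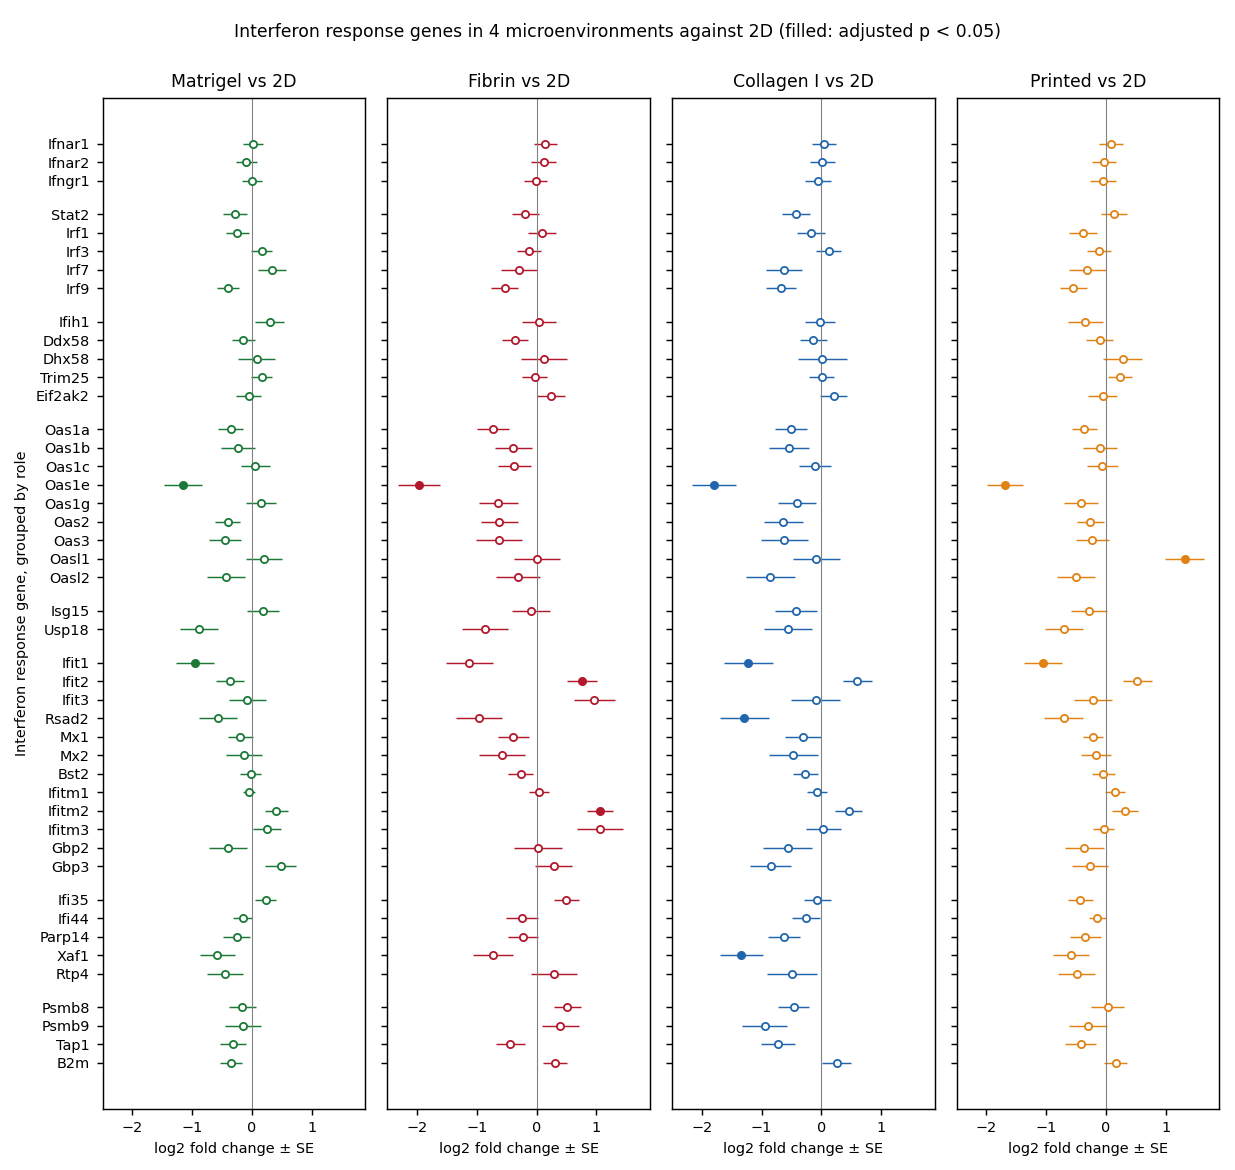
Log2 fold change with the authors' standard error of the 45 genes, grouped by role, in each microenvironment against 2D; filled points have an adjusted p under 0.05. Oas1e is filled in all 4 panels and lies lowest in each, and Ifit1 is filled in 3.

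The receptor genes stayed near their 2D level. Ifnar1, a chain of the type I interferon receptor, had levels of 4835 normalised reads in 2D, 4960 in Matrigel, 5311 in fibrin, 4818 in collagen I and 5268 in the printed cultures. Its log2 fold changes in the authors' deposited tables ran from 0.02 to 0.15, and the 95% intervals over the 4 tables reached from -0.35 to 0.53. Ifnar2, the other chain, ran from -0.09 to 0.12 in the authors' deposited tables, with intervals from -0.44 to 0.53. Ifngr1, the ligand-binding chain of the interferon gamma receptor, ran from -0.05 to 0.00 in the authors' deposited tables, with intervals from -0.49 to 0.39. The intervals leave out a change of 1 on the log2 scale in either direction for all 3 genes.

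None of the 5 transcription factor genes passed the test. Irf9, the DNA-binding part of the complex activated by type I interferon, had the lowest fold change of the 5 in every table. Its level was 1536 normalised reads in 2D, 1176 in Matrigel, 1049 in fibrin, 928 in collagen I and 1064 in the printed cultures. The authors' deposited tables gave Irf9 log2 fold changes of -0.40 ± 0.19, -0.53 ± 0.23, -0.67 ± 0.25 and -0.55 ± 0.22 in that order, with adjusted p from 0.060 to 0.25. Irf7, the factor that amplifies interferon alpha production, had the highest value of the group, 0.34 in Matrigel, and -0.62 in collagen I in the authors' deposited tables, and its smallest adjusted p was 0.19. Stat2, Irf1 and Irf3, the factor that first switches on interferon beta, lay between -0.43 and 0.16 in the authors' deposited tables.

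The RNA sensing genes moved less. Ifih1 and Ddx58, which encode the sensors MDA5 and RIG-I, their regulator Dhx58, the ubiquitin ligase gene Trim25 and Eif2ak2, which encodes the kinase PKR, lay between -0.36 and 0.30 in the authors' deposited tables. The lowest of them was Ddx58 in fibrin, -0.36, and the highest Ifih1 in Matrigel, 0.30, in those authors' deposited tables. Their smallest adjusted p was 0.36, for Ddx58. Trim25 had 4382 normalised reads in 2D and between 4224 and 5334 in the other groups.

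The OAS genes encode enzymes that make 2',5'-linked oligoadenylate on binding double-stranded RNA, or relatives of these enzymes. Oas1e (gene 231699, chromosome 5, 120786312 to 120795530, minus strand, GRCm38) fell the most of the 45 genes in each comparison. Its level was 176 normalised reads in 2D, with 170.0 to 183 over the 4 tables, 76.3 in Matrigel, 45.5 in fibrin, 50.02 in collagen I and 56.8 in the printed cultures. All 4 microenvironments were below every level computed for 2D, a range over tables and not over libraries. In the authors' deposited tables the log2 fold change of Oas1e was -1.16 ± 0.31 in Matrigel (adjusted p = 0.0067), -1.97 ± 0.35 in fibrin (adjusted p = 2.05e-06), -1.80 ± 0.37 in collagen I (adjusted p = 6.50e-05) and -1.69 ± 0.30 in the printed cultures (adjusted p = 4.89e-06). That is a level 2.23-fold lower in Matrigel, 3.93-fold lower in fibrin, 3.47-fold lower in collagen I and 3.22-fold lower in the printed cultures. Among all genes with a p-value, Oas1e had the lowest fold change of 19578 in the printed cultures, and ranked 20 from the lowest in fibrin, 59 in collagen I and 78 in Matrigel. The calls in Matrigel and collagen I were lost when the Wald statistics were scaled by the spread of their own middle part, over all genes tested, with adjusted p of 0.11 and 0.10, while those in fibrin and the printed cultures passed.

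The other OAS members of the same cluster did not pass. Oas2, Oas3, Oas1e, Oas1c, Oas1b, Oas1g and Oas1a, 7 of the 9 family members, lie within 177 kb on chromosome 5. Oas1a, an active synthetase gene, was the most abundant with 1356 normalised reads in 2D, 1075 in Matrigel, 803 in fibrin, 936 in collagen I and 1086 in the printed cultures. Its lowest log2 fold change in the authors' deposited tables was -0.74 ± 0.27 in fibrin (adjusted p = 0.066). Oas1c, the nearest member on 1 side of Oas1e, ran from -0.37 to 0.06 in the authors' deposited tables, and Oas3, the nearest on the other side, from -0.63 to -0.23. Some of these genes are near copies. Of the 50-base words in the transcripts of Oas1a, 57.6% also occurred in another gene, mainly Oas1g, and of those of Oas1g 54.7%, so the split of reads between these 2 genes is uncertain. The share was 11.3% for Oas1e, with Oas1c (8.50%) and Oas1d the genes that shared most. Oas1e and Oas1c also overlap an opposite-strand gene model, Gm43069, and with the strand setting of the counting not given, its reads cannot be told apart from theirs.

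**Figure D3:**
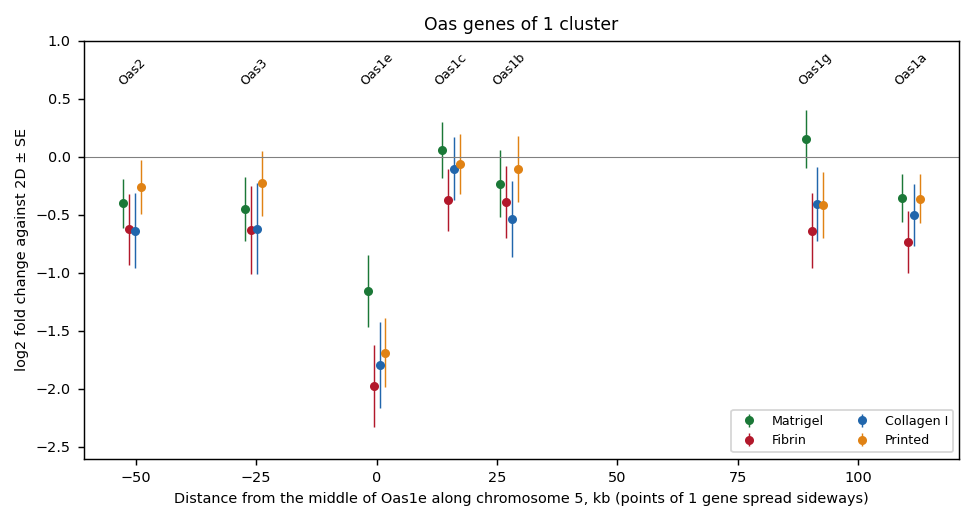
Log2 fold change against 2D with the authors' standard error for the 7 OAS genes of the chromosome 5 cluster, by distance from the middle of Oas1e in kilobases and coloured by microenvironment. Oas1e stands lower than its neighbours on both sides in all 4 microenvironments.

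Oasl1, an OAS-like gene about 5.9 Mb from Oas1e whose protein limits Irf7 translation, rose in the printed cultures. Its level was 60.8 normalised reads there, against 14.5 in Matrigel, 10.6 in fibrin and 9.17 in collagen I. In the authors' deposited table for the printed cultures its log2 fold change was 1.32 ± 0.32 (adjusted p = 0.0040), 2.49-fold higher, and in the other 3 authors' deposited tables it lay between -0.08 and 0.20. The 2D level computed from the printed table, 24.4, was above the 9.70 to 12.6 computed from the other tables for the same libraries, a mark of a fold change shrunken towards 0. With the 2D level of the other tables, 10.6, the level in the printed cultures was 74.6 and the ratio 7.05-fold, a value without a test. Oasl2 ran from -0.85 in collagen I to -0.31 in fibrin in the authors' deposited tables and did not pass.

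Isg15 encodes a ubiquitin-like protein that is joined to other proteins after interferon exposure, and Usp18 the enzyme that removes it and dampens the receptor. Isg15 had 104 normalised reads in 2D, 124 in Matrigel, 97.9 in fibrin, 73.7 in collagen I and 85.3 in the printed cultures, and its values in the authors' deposited tables ran from -0.42 to 0.18 with adjusted p of 0.51 or more. Usp18 had 46.6 in 2D and 24.7, 26.2, 32.6 and 27.2 in the same order. Its log2 fold changes in the authors' deposited tables were -0.89 ± 0.32, -0.86 ± 0.38, -0.55 ± 0.40 and -0.70 ± 0.32, with adjusted p from 0.071 to 0.44, so that no call was made.

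Among the 12 antiviral effectors, the genes encoding IFIT proteins, which bind foreign RNA, did not move as 1 group. Ifit1 (gene 15957) had 32.6 normalised reads in 2D, 17.2 in Matrigel, 15.5 in fibrin, 13.8 in collagen I and 15.0 in the printed cultures. It lay in all 4 below the 31.1 to 34.0 computed for 2D, a range over tables and not over libraries. It fell in 3 of the authors' deposited tables, by -0.95 ± 0.32 in Matrigel (adjusted p = 0.045), -1.22 ± 0.42 in collagen I (adjusted p = 0.035) and -1.05 ± 0.31 in the printed cultures (adjusted p = 0.031). In fibrin the value in the authors' deposited table was -1.13 ± 0.40 with adjusted p = 0.052. None of the 3 Ifit1 calls passed with the spread taken from the statistics themselves, where adjusted p was 0.30, 0.62 and 0.090, and the Matrigel call was also lost with no filter on base mean (adjusted p = 0.059).

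Ifit2 (gene 15958), which lies on chromosome 19 near Ifit1, had 552 normalised reads in 2D, 421 in Matrigel, 949 in fibrin, 823 in collagen I and 841 in the printed cultures. It was above 2D in the 3 cultures that held fibrin or collagen I and below it in Matrigel. It rose in fibrin, log2 0.76 ± 0.25 or 1.69-fold (adjusted p = 0.036, authors' deposited table), a call that was lost with the spread taken from the statistics (adjusted p = 0.36). In the other authors' deposited tables it was -0.36 in Matrigel, 0.61 in collagen I (adjusted p = 0.090) and 0.53 in the printed cultures. Ifit3 had 34.3 normalised reads in 2D and 80.6 in fibrin, with levels of 28.7 to 33.3 in the other groups. Its fibrin value in the authors' deposited table was 0.97 ± 0.35 (adjusted p = 0.060), and 51.2% of its 50-base words also occur in its copy Ifit3b.

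Ifitm2 (gene 80876, chromosome 7, 140954837 to 140959686, minus strand, GRCm38) rose in fibrin. Its level was 2447 normalised reads in 2D, 3243 in Matrigel, 5113 in fibrin, 3204 in collagen I and 3104 in the printed cultures. Fibrin was highest, and the 4 microenvironments were all above the 2330.4 to 2489.7 computed for 2D, a range over tables and not over libraries. The log2 fold change in fibrin was 1.06 ± 0.22, 2.09-fold higher (adjusted p = 7.23e-05, authors' deposited table), and the call passed under each alternative tried. The values in the other authors' deposited tables were 0.41 ± 0.19, 0.46 ± 0.22 and 0.32 ± 0.21 for Matrigel, collagen I and the printed cultures, with adjusted p of 0.19 or more. Of its 50-base words, 48.5% occur also in another gene. The largest share is with Gm45717 (36.1%), which overlaps it on the same strand, and Gm11951 is next. Reads of Ifitm2 and of these models may therefore be counted to either. Its relative Ifitm3 had a log2 value of 1.06 ± 0.39 in fibrin in the authors' deposited table (adjusted p = 0.062) at few reads, 25.6 against the 12.2 in 2D computed from the same table. The other 3 tables gave 3.17 to 6.86 for 2D, and with their median the ratio was 9.25-fold against 2.09-fold as deposited, a value without a test.

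Rsad2 encodes viperin, an enzyme that makes a chain-ending nucleotide against viral polymerases. Its level was 52.5 normalised reads in 2D, 36.5 in Matrigel, 26.9 in fibrin, 20.8 in collagen I and 32.0 in the printed cultures. It fell in collagen I, log2 -1.29 ± 0.40 or 2.44-fold lower (adjusted p = 0.019, authors' deposited table), and its other values in the authors' deposited tables ran from -0.97 in fibrin (adjusted p = 0.099) to -0.57 in Matrigel. The collagen I call was lost with the spread taken from the statistics (adjusted p = 0.53). The guanylate-binding protein gene Gbp3 had 138 normalised reads in 2D, 214 in Matrigel, 171 in fibrin, 70.4 in collagen I and 114 in the printed cultures. Its log2 value in collagen I in the authors' deposited table was -0.85 ± 0.34 (adjusted p = 0.090) and that in Matrigel 0.48. Bst2, with 8873 normalised reads in 2D, ran from -0.27 to -0.02 in the authors' deposited tables, and Gbp2, Mx1, Mx2 and Ifitm1 did not pass either.

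**Figure D4:**
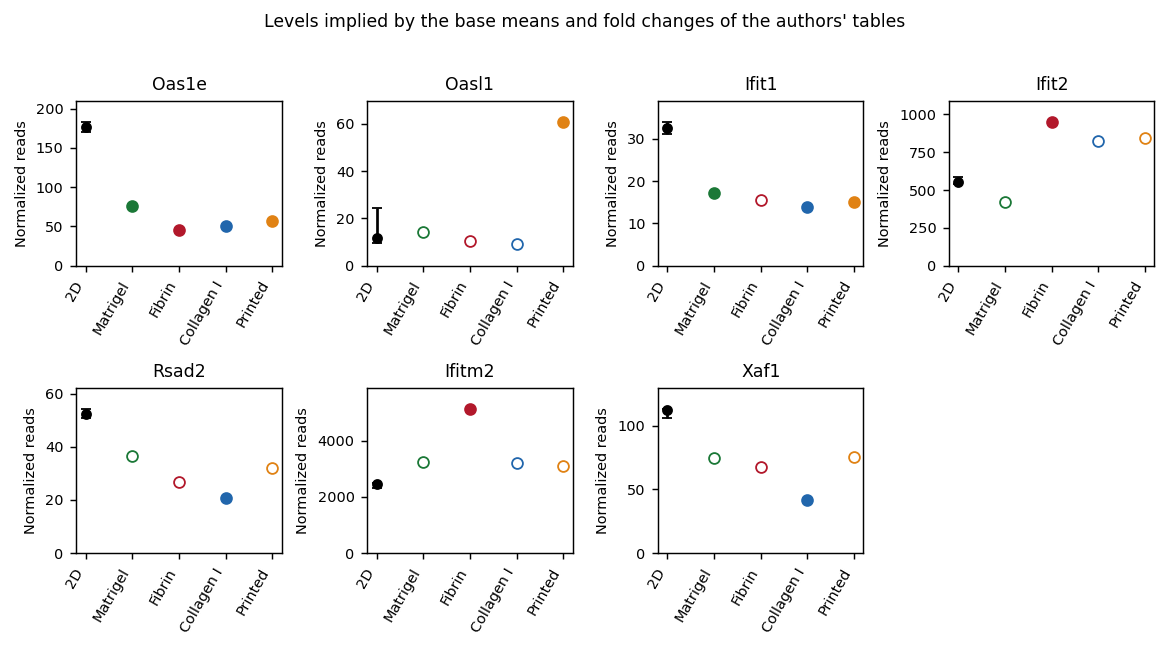
Levels in normalised reads, computed from the base means and fold changes of the authors' tables, for the members with a call, in 2D and the 4 microenvironments. Oas1e, Ifit1, Rsad2 and Xaf1 lie below 2D in each microenvironment, Ifitm2 above it, and Oasl1 stands out in the printed cultures at 60.8.

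Promoters of the members were searched for the core of the interferon-stimulated response element (GAAA, any 2 bases and GAAA again, on either strand) in the 250 bases before the start site (RefSeq, GRCm38.p6). It was in 14 of the 40 windows found for 36 of the 45 genes, 35%, against 2.98% of all 32851 promoters. TTCNNNGAA, the shorter gamma-activated element that other interferon-activated factors bind and that reads the same on both strands, was in 7 windows, 17.5%, against 7.02% of all. Of the members that rose or fell, Ifit1, Rsad2 and Ifitm2 have the core element in this window, Ifit2, Oasl1 and Xaf1 do not, and Oas1e has no entry in the promoter table. The Ifitm2 window belongs to a start site inside the gene, as it ends at 140956211 while the minus-strand gene begins at 140959686. The bases before that outer end were not searched. The windows of Ifit2, Oasl1 and Xaf1, on the plus strand, also belong to start sites inside the gene. Their outermost windows begin at 34550444, 114922990 and 72301379, and the genes at 34550550, 114923143 and 72301461. Only part of the 250 bases before those outer ends was searched, and the lack of a match covers that part only. The sequences below show that matches stand at promoters of genes that fell (Ifit1, Rsad2), rose (Ifitm2) or did not pass (Isg15), and that the near copies Oas1a and Oas1g share all 38 letters printed for Oas1g. Each is written 5′ to 3′ in the direction of the gene, with the matches in capitals. A core that lies on the other strand reads as TTTC, any pair of bases and TTTC, and adjoining or overlapping matches run together.
Ifit1 (chr19:34640765-34640833, plus strand): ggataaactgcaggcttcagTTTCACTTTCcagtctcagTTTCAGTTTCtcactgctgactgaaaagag
Rsad2 (chr12:26456543-26456592, minus strand): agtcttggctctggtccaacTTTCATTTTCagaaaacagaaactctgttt
Ifitm2 (chr7:140955978-140956027, minus strand): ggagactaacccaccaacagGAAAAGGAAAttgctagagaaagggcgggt
Isg15 (chr4:156200855-156200916, minus strand): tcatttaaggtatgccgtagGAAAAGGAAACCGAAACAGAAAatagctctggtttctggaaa
Oas1a (chr5:120907526-120907565, minus strand): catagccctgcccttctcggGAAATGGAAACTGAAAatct
Oas1g (chr5:120887614-120887651, minus strand): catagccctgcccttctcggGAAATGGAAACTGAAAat

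Of the 5 other induced genes, Xaf1, which encodes a pro-apoptotic partner of inhibitor-of-apoptosis proteins, fell in collagen I. Its level was 112 normalised reads in 2D, 75.1 in Matrigel, 67.9 in fibrin, 42.0 in collagen I and 75.3 in the printed cultures. All 4 lay below the 106 to 113 computed for 2D, a range over tables and not over libraries. The collagen I value in the authors' deposited table was -1.34 ± 0.36, 2.53-fold lower (adjusted p = 0.0043), and the others lay between -0.73 and -0.58 with adjusted p of 0.18 or more. That call was lost with the spread taken from the statistics (adjusted p = 0.36). Ifi35, a partner of Nmi, had the highest value of the group, 0.50 ± 0.20 in fibrin (adjusted p = 0.12, authors' deposited table), and -0.43 in the printed cultures. Parp14, Rtp4 and Ifi44 did not pass.

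The 4 antigen processing genes did not pass against 2D in any table. In collagen I, Psmb9, a subunit of the immunoproteasome, was at -0.95 ± 0.38 (adjusted p = 0.085) and Tap1, a chain of the peptide transporter, at -0.72 ± 0.29 (adjusted p = 0.084) in the authors' deposited table. Psmb9 had 165 normalised reads in 2D, 150.1 in Matrigel, 223 in fibrin, 78.3 in collagen I and 134 in the printed cultures. Psmb8, another immunoproteasome subunit, had the highest value of the 4 genes, 0.51 in fibrin, and -0.46 in collagen I in the authors' deposited tables. Psmb9 and Tap1 overlap on opposite strands. B2m ran from -0.35 in Matrigel to 0.31 in fibrin in the authors' deposited tables, at 27396 normalised reads in 2D.

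Differences between microenvironments were tested as the difference of the 2 fold changes in all 6 pairs. Of 241 tests of members with an adjusted p, 0 passed, and 21 had an unadjusted p under 0.05. The share of all genes that passed was 0.89% for printed against collagen I, 1.4% for printed against fibrin, 0.478% for Matrigel against collagen I, 1.13% for Matrigel against fibrin, 0.548% for collagen I against fibrin and 0.612% for Matrigel against printed. The smallest adjusted p was 0.081 for Ifit2, whose log2 fold change was lower by -1.12 in Matrigel than in fibrin (95% interval -1.80 to -0.45). Ifi35 followed with -0.93 in printed minus fibrin (interval -1.50 to -0.35, adjusted p = 0.094). These tests take the 2 fold changes as independent although they share the 2D libraries. They also use fold changes shrunken towards 0, as for Oasl1 above, and the effect of that on the count was not tested. With part of the shared variance taken off, 13 of the 241 passed, 3.14% of all genes' tests doing so, and with the spread taken from the statistics 8 passed, 1.81% of all. With the shared variance, Ifit2 passed in Matrigel minus fibrin (adjusted p = 0.00068), minus collagen I (0.0058) and minus printed (0.016). Oasl1 likewise passed in printed minus collagen I (adjusted p = 0.017) and minus fibrin (0.022), and in Matrigel minus printed (0.029). With the spread taken from the statistics, Ifit2 passed in Matrigel minus fibrin (adjusted p = 0.019) and none of the pairs of Oasl1 did. Psmb8 and Psmb9 in collagen I minus fibrin, and Ifi35 in printed minus fibrin, passed under both alternatives. Adjusted p with the shared variance and with the spread was 0.015 and 6.2e-05 for Psmb8, and 0.025 and 9.7e-05 for Psmb9. It was 0.00078 and 0.037 for Ifi35. The remaining passes were under a single alternative, Gbp3 in collagen I minus fibrin among them (0.00099, with the spread). Whether any of these genes differed between microenvironments thus depended on the setting, as 0 passed in the main test. Rsad2, Xaf1 and Ifit1 passed in no pair under any of these settings, so their calls in some tables and not in others are not shown to differ.

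The remaining pathway genes were counted in lists. The 21 interferon genes were at a base mean of 0 in 17 to 19 cases per table, all 21 lay under 10, and none had an adjusted p. Of 15 other receptor, kinase and feedback genes, all with an adjusted p, 1 rose in Matrigel, 1 in fibrin, 0 in collagen I and 1 in the printed cultures, and 0 fell. That is 6.67% in each of the 3 cultures with a call, near the 6.36% and 8.3% of all genes that changed in Matrigel and fibrin, and 1 gene against 3.18% in the printed cultures. They were Ptpn6, which encodes the phosphatase SHP-1, with 1.37 ± 0.23 in Matrigel and 0.99 ± 0.24 in the printed cultures, and Ifngr2 with 0.75 ± 0.21 in fibrin, in the authors' deposited tables. Of 20 other sensors, adaptors and interferon regulatory factors with a row, 18 or 19 had an adjusted p. Of these 1 rose and 1 fell in Matrigel, 1 rose in fibrin, 1 fell in collagen I and 0 changed in the printed cultures, or 11.1%, 5.26%, 5.56% and 0%, against 6.36%, 8.3%, 11.2% and 3.18% of all genes. Tlr2, a receptor for bacterial lipoproteins, was at -0.92 ± 0.23 in Matrigel and -0.98 ± 0.27 in collagen I in the authors' deposited tables, and Irf8 at 0.66 ± 0.22 in Matrigel and 0.76 ± 0.24 in fibrin.

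Of 53 further interferon-induced genes, 40 to 42 had an adjusted p. Of these 2 rose and 2 fell in Matrigel, 4 rose and 2 fell in fibrin, 4 rose and 4 fell in collagen I, and 0 rose and 1 fell in the printed cultures. The shares that changed were 9.52%, 14.6%, 20% and 2.38%, against 6.36%, 8.3%, 11.2% and 3.18% of all genes, with no test of the difference. Slfn5, a member of the Schlafen family, fell in all 4 authors' deposited tables, by -1.83 ± 0.32, -2.00 ± 0.39, -1.93 ± 0.42 and -1.41 ± 0.32. Samhd1, which encodes an enzyme that degrades deoxynucleotides, rose by 1.16 ± 0.19 in Matrigel and 0.95 ± 0.22 in collagen I in the authors' deposited tables. In fibrin, Oas1d fell by -1.16 ± 0.36 and Ifit3b, the near copy of Ifit3, rose by 1.17 ± 0.38 in the authors' deposited table. Oas1d, another gene of the OAS family on chromosome 5, was at -0.70, -0.84 and 0.13 in the other authors' deposited tables, for Matrigel, collagen I and the printed cultures, and did not pass there. Of 22 further antigen processing and MHC genes, 1 rose and 1 fell in Matrigel, 2 rose and 0 fell in fibrin, 1 rose and 2 fell in collagen I and 1 rose in the printed cultures. All had an adjusted p, and these shares of 9.09%, 9.09%, 13.6% and 4.55% were near those of all genes. Cd74, the chaperone of MHC class II molecules, rose in all 4 authors' deposited tables, by 1.01 ± 0.22, 1.88 ± 0.22, 0.97 ± 0.27 and 0.94 ± 0.25. Nlrc5, a regulator of MHC class I genes, was at -0.82 ± 0.19 in Matrigel and -1.16 ± 0.26 in collagen I in the authors' deposited tables.

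The labelled cell type was set against marker genes. All 11 tubule and epithelial genes were above 0, and Emx2, an introduced factor, had a base mean of 20398 in the authors' deposited table for Matrigel. Of these 11, 4 rose in Matrigel (Cdh1, Epcam, Lrp2 and Cubn), Pax8 fell in fibrin, Pax8 and Krt8 fell in collagen I, and 0 changed in the printed cultures. Of 13 fibroblast markers, 0 rose in any culture. Zeb2 fell in Matrigel, by -1.36 ± 0.27, Col1a1 in fibrin, by -1.49 ± 0.33, and in collagen I, by -2.35 ± 0.33, and Pdgfra in fibrin, by -1.19 ± 0.39, in the authors' deposited tables. The summed level of the fibroblast list was 7840.3 to 8343 normalised reads in 2D, 5981 in Matrigel, 9145 in fibrin, 7938 in collagen I and 8655 in the printed cultures, of which Vim alone made 69.0% to 75.4%. Of 19 immune cell markers, 7 were at a base mean of 0 in each table, T cell and B cell markers among them, and Ptprc, the marker of all leukocytes, had base means of 0.65 to 3.02 in the authors' deposited tables. The summed level of the list was 3881 to 4242 normalised reads in 2D, 4575 in Matrigel, 10162 in fibrin, 3992 in collagen I and 5853 in the printed cultures. Cd14 alone made 89.1%, 92.9%, 81.6% and 59.9% of it in these 4, and the sum without Cd14 was 499, 721, 734 and 2344, against 909 to 1045 in 2D. In fibrin Cd14, at 1.54 ± 0.22, and Itgam, at 1.24 ± 0.40, were higher in the authors' deposited table, and in the printed cultures Cd68, at 1.6 ± 0.23, and Csf1r, at 0.71 ± 0.22, were higher in the authors' deposited table. Csf1r was lower in Matrigel, at -1.31 ± 0.23, and in collagen I, at -1.50 ± 0.27, in the authors' deposited tables. The part of these genes in the values of the interferon response genes was not tested.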

How the data were processed

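The 4 results tables as deposited, 1 per microenvironment against 2D, are for 27179 genes and 6 libraries each, with 0 columns of values per library, so no test was refitted and the depth is unknown. Per the submitters' processing notes, the authors aligned to build mm10 with tools that included STAR 2.6.0b-1, counted with featureCounts 1.6.3 and tested with DESeq2 1.22.1, beside Trim Galore 0.4.3 and FastQC 0.72. Not given in the sources used here are the strand setting, the annotation and any term for passage. Base means are a signal deposited by the authors, the mean of counts divided by size factors. Fold changes were deposited by the authors on the log2 scale with standard errors, and are shrunken towards 0. The deposited Wald statistic is a score, and the deposited p-value, two-sided, was computed from it by the authors. The deposited adjusted p-value is missing for low base means, with smallest base means having one of 4.53 to 8.68. Group levels were computed as the 2 values whose mean is the base mean and whose ratio is the fold change. Directions were checked through the 2D level, whose log2 value had a median SD between tables of 0.0451 over 18577 genes, against 0.152 or more with a sign turned. Median standard errors at a base mean of 100 or more lay from 0.19 (Matrigel) to 0.23 (fibrin and collagen I).

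The 6 pairs of microenvironments were compared by dividing the difference of fold changes by the square root of the summed squared standard errors. The two-sided normal p was adjusted by Benjamini and Hochberg's method within each pair, over all genes with an adjusted p in both tables. The calculation was tested on simulated fold changes drawn independently and without shrinkage. That simulation therefore does not cover the shared 2D libraries or the shrinkage. Alternatives were no filter on base mean, a base mean of 100 or more, a threshold of 0.1, a spread taken from the interquartile range of the statistics, and a shared covariance. A ratio of levels with the 2D level of the other 3 tables was added after seeing the data. Exon lengths and shared 50-base words came from GENCODE transcripts of GRCm38, coordinates and promoters from RefSeq on GRCm38.p6. Members and gene lists were chosen with earlier results of these data known, and 1 gene of the list of sensors is not reported here. Named in full were members past the threshold in any comparison, and the highest and lowest member of each role; of each list at most 5 genes per comparison. Python 3.11.15, numpy 2.4.6, pandas 2.3.3, scipy 1.17.1 and matplotlib 3.10.9 were used.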

Additional observations from a re-analysis of the deposited data

How the results depend on the processing

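No paired analysis was possible because the tables hold no values per library, and leaving out single replicates was not run for the same reason. With the spread taken from the statistics, the members changed went from 2 to 0 in Matrigel and from 4 to 0 in collagen I, and 4 calls passed: Oas1e in fibrin and the printed cultures, Ifitm2 in fibrin and Oasl1 in the printed cultures. Under that setting 2.55% of all genes passed in Matrigel, 2.30% in fibrin, 1.04% in collagen I and 1.79% in the printed cultures. When genes of a base mean under 100 were left out, 1 member changed in Matrigel, 1 in collagen I and 1 in the printed cultures, since Ifit1, Rsad2, Xaf1 and Oasl1 lie under that base mean. These were 1 of 28, 1 of 26 and 1 of 27 members tested, against 7.59%, 12.5% and 4.20% of all genes. With no filter on base mean, 1 of 45 changed in Matrigel, against 4.40% of all genes. At a threshold of 0.1, 8 of 41 changed in fibrin and 9 of 40 in collagen I, against 11.6% and 15.0% of all genes. Between microenvironments, the 0 calls in 241 tests became 13 with a shared covariance and 8 with the spread taken from the statistics. The shares of all genes' tests were 3.14% and 1.81%. The ratio of levels with the 2D level of the other tables moved 26 values by more than their standard error and left 151 within it, and no value with a call turned its direction. Fewer reads limit the low genes: 4 of the 45 lay under a base mean of 10 in every table, and 26 above 100 in every table.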
